A study of Mus musculus with 9 samples.

Results

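The 10 genes Epcam, Cdh1, Krt7, Krt8, Krt18, Krt19, Ovgp1, Foxj1, Ehf and Elf3 mark the oviduct epithelium, a lineage that a muscle culture is not meant to hold. They were taken as a named set from 21853 protein-coding genes, and every peak that overlapped a gene body plus 25 kb either side was collected. A peak was called a promoter peak when it overlapped, by at least 1 bp, the window 1 kb either side of a start of a protein-coding transcript. The other peaks were called intragenic when they overlapped the gene body and flanking when they did not. The chromatin came from oviductal muscle cells, in primary culture, of WT mice aged 8 to 12 weeks that had been mated with stud males and were at day 2 of pregnancy (D2). All groups shared this genotype, stage and culture. Oviducts were digested with trypsin, collagenase and dispase, and the cells were filtered and plated for 4 h in 12% charcoal-stripped serum and then for 2 h in 10% serum. The labels describe no cell sort. ChIC-Seq, in which an antibody brings protein A-MNase to its target so that nearby DNA is cut and released, was run on 50000 fixed cells per library. H3K27ac (3 samples), H3K4me1 (3 samples) and IgG (3 samples) were assayed, which gave 6 replicate peak lists, 1 for every sample of a histone mark, and 2 pooled lists, 1 for every mark.

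Epcam and Cdh1 encode adhesion molecules that join epithelial cells to each other. Krt7, Krt8, Krt18 and Krt19 encode the simple-epithelial keratins, intermediate filament proteins that assemble as pairs of one acidic chain (Krt18, Krt19) and one basic chain (Krt7, Krt8). Ovgp1 encodes oviductin, the glycoprotein secreted by non-ciliated oviduct cells, and Foxj1 encodes the transcription factor that drives motile ciliogenesis. Ehf and Elf3 encode ETS transcription factors of epithelia. H3K27ac is found at active promoters and enhancers, whereas H3K4me1 is found at enhancers and on the shoulders of promoters, including ones that are not active. Neither mark measures RNA.

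The lists held 93684 to 152889 peaks in the 6 replicates, made from 40551842 to 78891920 fragments against 3110985 to 3713369 IgG fragments. Most calls were weak, since only 11.1% to 19.0% of peaks in a replicate list had an average −log10 p-value of 1.3 or more. The IgG library used as control was IgG 1 for H3K27ac replicate 1 alone, IgG 2 for a group of 3 lists (H3K27ac replicate 2 with the first and second H3K4me1 replicates), and IgG 3 for the third replicate of both marks. Among 12 smooth muscle genes, 6 (50.0%) had an H3K27ac promoter peak in at least 2 of 3 replicates, against 53.9% of all protein-coding genes, and 8 (66.7%) had an H3K4me1 promoter peak, against 43.7%. The H3K27ac share of the muscle list was thus near the background. Acta2, Des, Smtn, Synpo2 and Srf had both marks in every replicate and Tagln had H3K27ac in 2 and H3K4me1 in 3. Myh11, the smooth muscle myosin heavy chain, had H3K27ac in 0 replicates and H3K4me1 in 1, although the pooled list of each mark had a peak at its promoter. Among 12 stromal genes the counts were 12 and 11. In bulk chromatin of this kind, a small number of cells with a mark and a low level of the mark in every cell cannot be told apart.

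RefSeq promoter entries on GRCm38.p6, each of 250 bases before and 50 after a start, were used for 6 of the 10 genes, namely Epcam, Krt7, Krt8, Krt18, Ovgp1 and Elf3. The table used here did not hold Cdh1, Krt19, Foxj1 and Ehf. The E-box CAGGTG, read on both strands, was present in each of the 6 entries and in 20.2% of all 32851 entries of the same length. Those of Epcam (chr17:87635729-87635978, plus strand), Krt18 (chr15:102027966-102028179, plus strand) and Elf3 (chr1:135258569-135258722, minus strand) are shown 5′ to 3′, because their E-boxes lay before the annotated exons. They end at the first annotated exon, and capitals mark CAGGTG or its reverse complement CACCTG.
Epcam: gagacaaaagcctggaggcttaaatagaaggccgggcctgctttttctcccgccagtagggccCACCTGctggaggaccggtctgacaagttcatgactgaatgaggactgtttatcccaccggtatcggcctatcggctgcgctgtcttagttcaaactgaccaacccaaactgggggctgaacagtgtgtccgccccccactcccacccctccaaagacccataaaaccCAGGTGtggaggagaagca
Krt18: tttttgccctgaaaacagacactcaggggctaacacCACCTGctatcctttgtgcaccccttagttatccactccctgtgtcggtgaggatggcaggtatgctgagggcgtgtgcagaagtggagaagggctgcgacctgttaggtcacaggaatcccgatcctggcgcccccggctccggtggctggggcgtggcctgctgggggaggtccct
Elf3: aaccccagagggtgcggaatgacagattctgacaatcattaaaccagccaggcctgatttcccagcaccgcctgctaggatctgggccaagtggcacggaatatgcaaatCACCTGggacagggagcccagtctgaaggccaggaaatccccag
Epcam had 2 matches and Krt18 and Elf3 had 1 each, and these promoters had a peak in 0 (Epcam), 1 (Krt18) and 0 (Elf3) of the 6 replicate lists. The AP-1 motif TGANTCA, which equals its own reverse complement, matched 1 entry, that of Ovgp1, against 7.81% of all entries. The GC box GGGCGG, on both strands, had 4 matches in Krt7 and 1 in Epcam, against 35.7% of all entries with at least 1. The TATA box TATAAA, on both strands, had 2 matches in Krt8, against 13.6%. No factor was assayed here, and the matches describe letters only.

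The centre of the H3K4me1 segment upstream of Krt8 is shown because Krt8 was the only gene of the set with an H3K4me1 promoter peak in all 3 replicates. It lies at chr15:102005435-102005734 on GRCm38.p6, plus strand, between Krt8 and Krt18 and outside both, and capitals mark CAGGTG or CACCTG and TGANTCA.
Krt8 upstream segment: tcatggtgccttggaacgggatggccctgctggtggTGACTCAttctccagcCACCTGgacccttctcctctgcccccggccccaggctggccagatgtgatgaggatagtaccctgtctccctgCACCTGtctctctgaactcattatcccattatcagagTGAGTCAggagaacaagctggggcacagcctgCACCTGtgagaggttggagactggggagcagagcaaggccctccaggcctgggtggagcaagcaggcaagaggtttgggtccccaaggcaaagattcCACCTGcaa
This stretch of 300 bases had 4 E-box matches, 2 AP-1 matches and no GC or TATA box. Of 4559 centres of the same length from pooled H3K4me1 peaks on chromosome 15, 15.6% had an E-box and 12.3% had an AP-1 match. Of these centres, 0.0219% had 4 or more E-boxes and 0.899% had 2 or more AP-1 matches. The Krt8 stretch is the centre of a segment recurrent among replicates and not of a pooled peak, so it was chosen differently from these centres.

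No gene of the set had an H3K27ac promoter peak in at least 2 of 3 replicates, whereas 53.9% of all protein-coding genes did. For H3K4me1, 4 of the 10 genes did (Krt8, Krt19, Ovgp1 and Ehf), against 43.7% of all genes, so the H3K4me1 count was near the background. Both marks recurred at 0 of the 10 promoters, against 39.1% of all genes. The 4 genes with H3K4me1 therefore had H3K4me1 without recurrent H3K27ac, a state found in 4.54% of all genes and, as counted further on, in a larger share than this of most of the other gene lists. The remaining 6 genes had neither mark by this count, against 41.6% of all genes. In the single lists, H3K27ac replicates 1, 2 and 3 marked 1, 3 and 2 of the 10 promoters, and H3K4me1 replicates 1, 2 and 3 marked 4, 2 and 4. The H3K27ac calls fell on different genes in each replicate, with Krt7 in replicate 1, Cdh1, Krt18 and Ehf in replicate 2, and Krt8 and Ovgp1 in replicate 3. An H3K27ac promoter peak in at least 1 replicate was thus found at 6 of the 10 genes, against 62.5% of all genes, of which most had it in at least 2 of 3 (53.9% of all genes). With only peaks of −log10 p of at least 1.3 kept, no member had an H3K27ac promoter peak in any replicate, while 40.8% of all genes had one in at least 2 of 3. The H3K4me1 promoter peaks of Krt19 in replicates 1 and 3 and those of Krt8 and Foxj1 in replicate 3 passed this filter, at −log10 p of 1.44, 1.72, 1.47 and 1.37. Krt19 alone then had a recurrent H3K4me1 promoter peak, 1 of 10 genes against 13.5% of all genes, which is near the background. The counts also moved with the window and with the peaks kept, as did the shares of all genes. The H3K27ac count became 2 with windows of 2 kb (Krt8 and Krt18, against 56.0% of all genes). The H3K4me1 count became 1 with windows of 250 bp (Ehf, against 27.1%) and 1 with the 50000 peaks of highest fold enrichment per list (Krt19, against 33.9%). It became 0 when the start base had to be covered (against 17.6%). Without H3K4me1 replicates 1 and 3 in turn, the H3K4me1 count was 1 and 2, respectively.

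**Figure D1:**
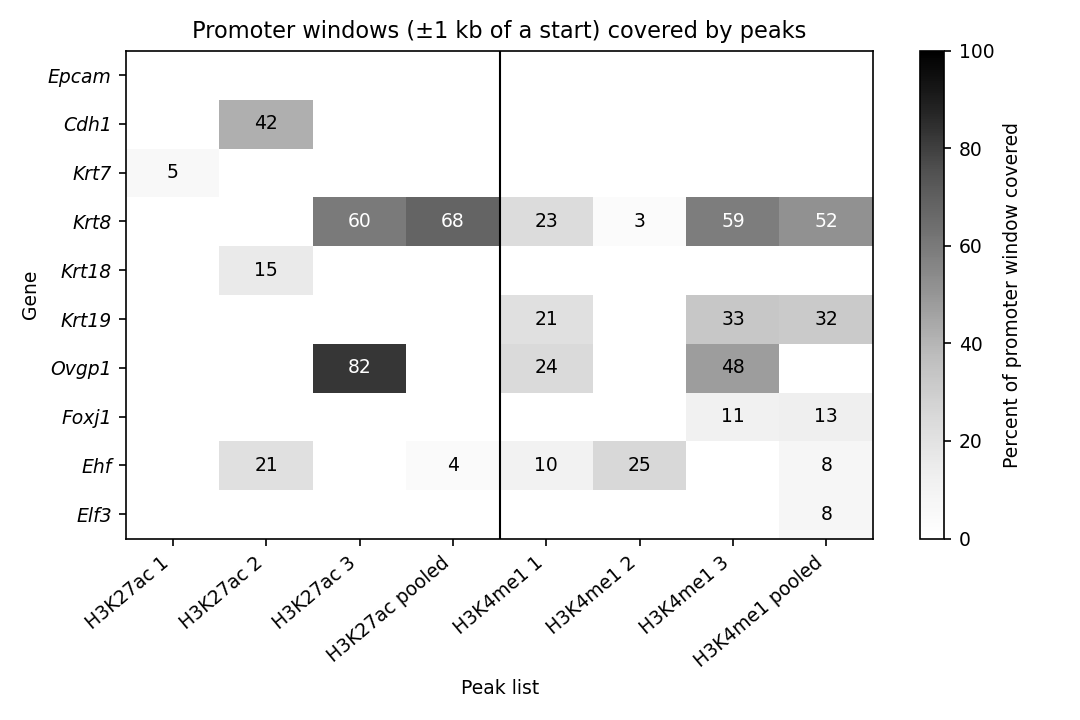
Percent of each promoter window (1 kb either side of every protein-coding start of a gene, rows) covered by peaks in the 6 replicate and 2 pooled lists (columns), with the rounded percent written where a peak was called. Epcam is empty in all 8 lists, Elf3 is marked only in the pooled H3K4me1 list, and Krt8 is the only row filled in all 3 H3K4me1 replicates.

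Epcam had no promoter peak in any of the 8 lists. Its nearest peak lay 8004, 21776 and 21824 bp from a start in H3K27ac replicates 1, 2 and 3 and 21833, 22234 and 7352 bp away in H3K4me1 replicates 1, 2 and 3. The single peak inside the gene, of 780 bp in H3K27ac replicate 1, was intronic and had no counterpart in the other 5 replicate lists. The widest recurrent H3K27ac segment of the window, chr17:87612921-87614203 (1283 bp), lay far upstream and was present in all 3 replicates.

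Cdh1, which encodes E-cadherin, had a promoter peak only in H3K27ac replicate 2, where it covered 41.9% of the promoter window and the start itself with a fold enrichment of 1.57. All fold enrichments are the peak caller's, with 1 added to coverage and to background, and are smaller than the ratio of the coverages themselves. The other 5 replicate lists and both pooled lists covered 0% of it. Inside the gene, a short intronic site was shared by both marks. H3K27ac replicates 1 and 2 covered chr8:106647293-106647510 (218 bp) and H3K4me1 replicates 1 and 2 covered chr8:106647149-106647506 (358 bp), and both pooled lists held a peak there, with fold enrichments of 2.28 for H3K27ac and 2.06 for H3K4me1. H3K27ac replicate 3 and H3K4me1 replicate 3, which share IgG 3, lacked it. H3K4me1 alone had further recurrent intronic segments, the longer of which, of 468 bp at chr8:106635354-106635821, came from replicates 2 and 3.

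Krt8 had the most heavily marked window of the set. Peaks covered 28.5%, 19.1% and 36.2% of it in H3K27ac replicates 1, 2 and 3 and 22.9%, 23.3% and 36.0% in H3K4me1 replicates 1, 2 and 3. The means of 27.9% and 27.4% stood at the 97.8th and 97.5th percentiles of all genes, and the highest value of each mark came from the list called against IgG 3. Most of this length was not at the gene. The widest segment, chr15:101973656-101979689 for H3K27ac (6034 bp) and chr15:101973660-101979166 for H3K4me1 (5507 bp), began 24793 and 25316 bp downstream of the Krt8 start and was found in every replicate of both marks. Its peaks were among the strongest of their lists. H3K27ac replicates 1, 2 and 3 had fold enrichments of 2.23, 2.37 and 2.41 there, at the 98.0th, 98.9th and 98.9th percentiles of their lists. H3K4me1 replicates 1 and 2 had 2.11 and 2.07, at the 98.1st and 97.9th percentiles, and H3K4me1 replicate 3 held 2 peaks of 2.00 each.

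At the Krt8 start the marks were less regular. Peaks covered 0%, 0% and 60.1% of the promoter window in H3K27ac replicates 1, 2 and 3 and 23.4%, 3.05% and 58.6% in H3K4me1 replicates 1, 2 and 3. The pooled lists each had a peak over the start and covered 67.8% (H3K27ac) and 51.7% (H3K4me1) of it. H3K4me1 replicate 1 reached to 532 bp and replicate 2 to 940 bp upstream of the start, while replicate 3 crossed the start in a peak of 8667 bp. All 3 covered chr15:102005422-102006120 (699 bp), and at least 2 covered chr15:102005014-102006154 (1141 bp) throughout. No H3K27ac base was covered there by 2 replicates. Further upstream, toward Krt18, both marks shared segments, of which chr15:102015584-102015821 and chr15:102016586-102017440 held bases covered in all 3 H3K27ac replicates and overlapped the H3K4me1 segment chr15:102015567-102017197.

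**Figure D2:**
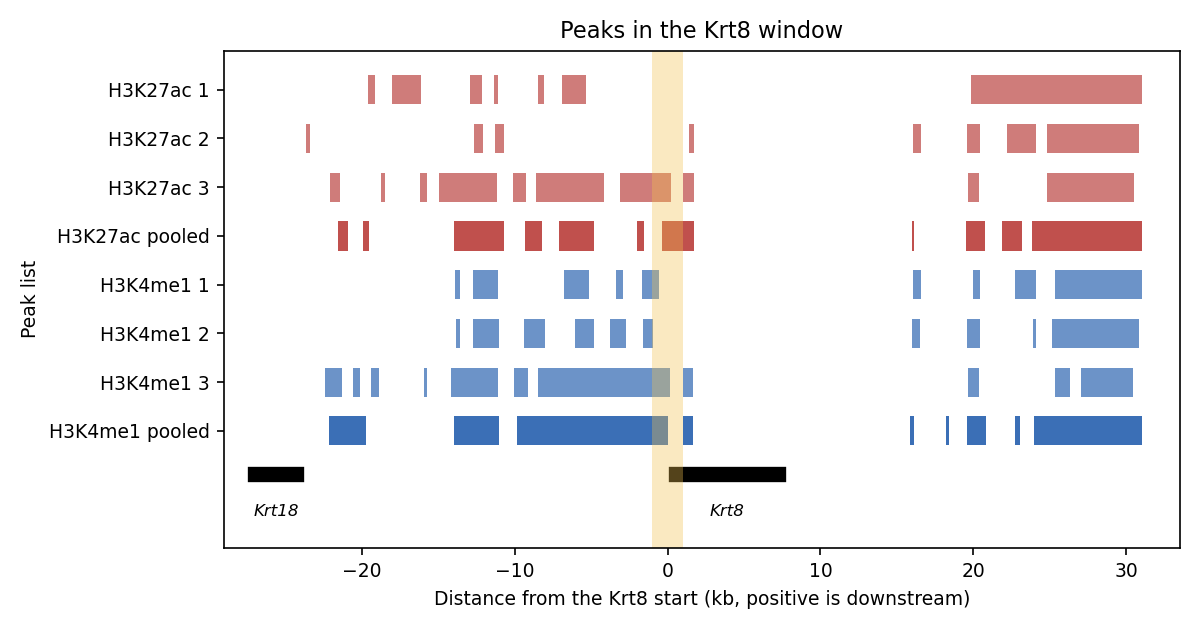
Peaks (bars) of the 8 lists over the window of Krt8, drawn as kb from the Krt8 start with downstream to the right, with H3K27ac in red, H3K4me1 in blue, the promoter window in yellow and the bodies of Krt8 and Krt18 in black. The block beyond 20 kb downstream is present in every list, whereas the peaks between the Krt18 and Krt8 starts differ in number and width among replicates.

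Krt18, the acidic partner of Krt8, lies head to head with it and shares most of the interval between their starts. Its own body was not covered in any of the 6 replicate lists or the 2 pooled lists. Its only promoter peak was in H3K27ac replicate 2, which covered 15.3% of the promoter window and ended 17 bp short of the start. The Krt18 window was nonetheless covered at 10.7%, 6.26% and 26.7% by H3K27ac replicates 1, 2 and 3 and at 12.1%, 13.1% and 28.4% by H3K4me1 replicates 1, 2 and 3. These peaks were largely the ones counted for Krt8, and the same lists called against IgG 3 were again the highest of each mark.

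Krt7 lies among other keratin genes. It had 1 promoter peak, of 170 bp in H3K27ac replicate 1, which covered 5.15% of the promoter window and no start. The other 5 replicate lists covered 0% of the Krt7 body. Recurrent marks lay upstream, where all 3 H3K4me1 replicates reached into chr15:101394748-101395923 (1176 bp) and 2 H3K27ac replicates covered 424 bp of it.

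Krt19 had the promoter peak of highest fold enrichment among the replicate lists, 2.15 in H3K4me1 replicate 3. The promoter window was covered at 20.8%, 0% and 33.1% in H3K4me1 replicates 1, 2 and 3 and at 0% in each H3K27ac replicate. Replicate 2 did have a peak at the same place, but it began 1217 bp from the coding start, outside the window. The segment covered by at least 2 H3K4me1 replicates, chr11:100146705-100147861 (1157 bp), lay upstream of the start of the protein-coding transcript. It lay within the annotated gene body, which extends further upstream, and it overlapped no exon. The 3 H3K4me1 peaks had fold enrichments of 1.99, 1.83 and 2.15, at the 94.8th, 83.9th and 99.0th percentiles of their lists. The body of the gene was covered at 14.7%, 6.57% and 19.5% by H3K4me1 and at 0%, 8.16% and 0% by H3K27ac in replicates 1, 2 and 3. The H3K4me1 mean of 13.6% stood at the 79.2nd percentile of all genes. The flanks of Krt19 held 0 to 2 peaks in each replicate list, and H3K27ac replicate 3 had 0 peaks in the whole window.

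Ovgp1 had promoter peaks in H3K27ac replicate 3 and in H3K4me1 replicates 1 and 3, which covered 82.5%, 24.0% and 47.5% of the promoter window. H3K27ac replicates 1 and 2 covered 0%. H3K4me1 replicate 2 had a peak 1003 bp upstream, just outside the window, so the segment chr3:105972009-105973113 (1105 bp) was touched by all 3 H3K4me1 replicates. The peaks near the start were weak, with fold enrichments of 1.57 in H3K27ac replicate 3, 1.47 in H3K4me1 replicate 1 and 1.43 and 1.56 in H3K4me1 replicate 3, and neither pooled list had a promoter peak. The window was covered at 18.6%, 19.0% and 20.3% by H3K27ac and at 14.4%, 11.0% and 18.4% by H3K4me1 in replicates 1, 2 and 3, at the 92.8th and 87.2nd percentiles of all genes for the means. The widest segment in it, of 7485 bp for H3K27ac and 5118 bp for H3K4me1, lay at the promoters of Atp5f1, a subunit gene of mitochondrial ATP synthase, and Wdr77, whose starts are 13.6 and 12.1 kb from that of Ovgp1. Both neighbours had promoter peaks in 3 of 3 replicates of each mark.

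**Figure D3:**
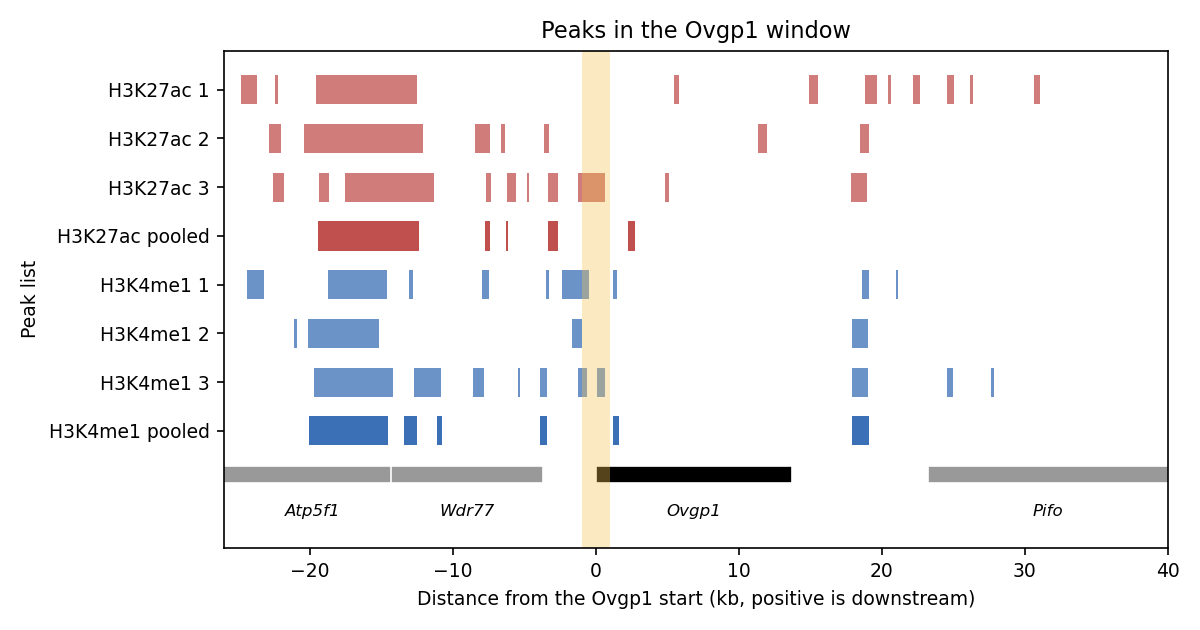
Peaks (bars) of the 8 lists over the window of Ovgp1, drawn as kb from the Ovgp1 start with downstream to the right, with H3K27ac in red, H3K4me1 in blue, the promoter window in yellow, Ovgp1 in black and neighbouring protein-coding genes in grey. Every list has its widest peak at the Atp5f1 and Wdr77 promoters, and the gene body of Ovgp1 holds few and short peaks.

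Foxj1 had no peak inside its body in any replicate list. H3K4me1 replicate 3 had a peak of 238 bp that began 780 bp upstream of the start, and it covered 11.0% of the promoter window, and the other 5 replicate lists covered 0%. The pooled H3K4me1 list had a different peak, of 263 bp inside the gene and 191 bp from the start, which covered 13.1% of the promoter window. In the 5 replicate lists with no promoter peak, the nearest peaks lay 22974 to 28534 bp away. The recurrent segments of the window were 589 bp of H3K27ac at the promoter of Exoc7 and 773 bp of H3K4me1 at a promoter of Rnf157, and no base of either was covered by 2 replicates of the other mark.

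Ehf, whose 6 annotated starts spread over a body of 39.85 kb, had promoter peaks in H3K27ac replicate 2 and in H3K4me1 replicates 1 and 2. These 3 lists are those with IgG 2 as control. They covered 20.8%, 10.3% and 25.2% of the promoter windows, and the other 3 replicate lists covered 0%. The H3K4me1 promoter segments lay at internal starts, at chr2:103283497-103283696, chr2:103284439-103285259 and chr2:103288593-103290209, and among the replicate lists the most upstream start had a promoter peak only in H3K27ac replicate 2, of 172 bp. In the pooled lists 4.04% (H3K27ac) and 7.77% (H3K4me1) of the promoter windows was covered, with the H3K27ac peak 119 bp from a start. The body was covered at 4.79%, 6.80% and 4.25% by H3K27ac and at 11.4%, 16.7% and 4.00% by H3K4me1 in replicates 1, 2 and 3. An intronic segment at chr2:103287246-103287695 was shared by both marks in 2 replicates each. H3K27ac also covered 887 bp of exon sequence near the 3′ end of the gene, chr2:103263798-103264684, and this segment was touched by all 3 H3K27ac replicates.

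Elf3 had no promoter or intragenic peak in any of the 6 replicate lists. The pooled H3K4me1 list held a peak of 162 bp that began 481 bp upstream of the start, with a fold enrichment of 2.04. The nearest peaks in the replicate lists lay 17919 to 23871 bp away. The recurrent H3K27ac segment of its window, of 946 bp, lay at the promoter of Rnpep, where each H3K27ac replicate and both pooled lists had a peak.

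Over the 10 windows, promoter, intragenic and flanking peaks numbered 1, 6 and 31 in H3K27ac replicate 1, 5, 8 and 25 in replicate 2 and 3, 2 and 39 in replicate 3. They numbered 6, 4 and 35 in H3K4me1 replicate 1, 4, 8 and 28 in replicate 2 and 5, 5 and 32 in replicate 3. Flanking peaks were the most numerous class in each list. H3K27ac had 29 segments in which 2 or more replicates overlapped, of which 0 were at a member promoter, 4 were intragenic and 25 were flanking, and 5 of the 29 lay at promoters of neighbouring genes. H3K4me1 had 37 such segments, of which 6 were at a promoter, 6 were intragenic and 25 were flanking. For each mark, 17 of these segments overlapped one of the other mark. The gene bodies were thinly covered, with a median over the 10 genes of 1.53% for H3K27ac and 0.674% for H3K4me1, against 3.61% and 2.65% over all genes. For each mark 7 of the 10 genes lay below the median of all genes. Over whole windows the medians were 3.13% and 3.66%, against 4.71% and 3.97%.

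**Figure D4:**
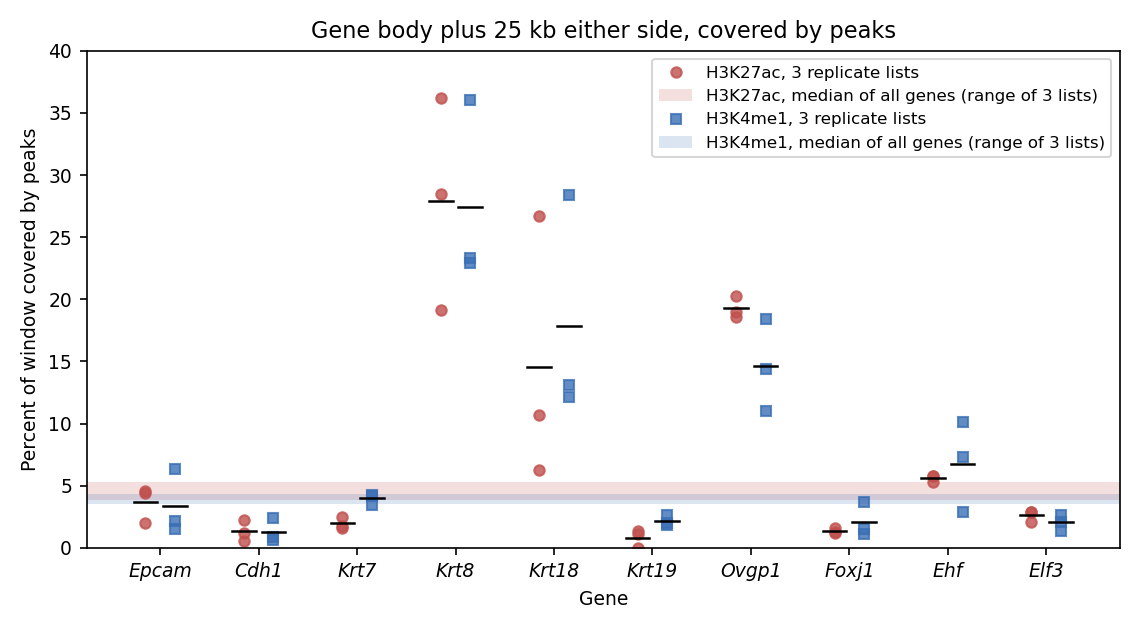
Percent of each gene's window (body plus 25 kb either side) covered by peaks in the 3 replicate lists of each mark (points) with their mean (black line), and, as bands, the range over 3 lists of the median of all genes. Krt8, Krt18 and Ovgp1 sit above the bands in every list, and Cdh1, Krt19 and Elf3 sit below them in every list.

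Gene lists of other cell types were counted in the same way, to be read against 53.9% of all genes for H3K27ac and 43.7% for H3K4me1. Of 20 further epithelial genes, 4 (Cldn3, Esrp2, Spint1 and Muc1) had H3K27ac and 6 had H3K4me1 at the promoter in at least 2 of 3 replicates. Esrp2, an epithelial splicing regulator, had both marks in every replicate, Muc1 had H3K27ac in 3 and H3K4me1 in 2, and Ovol2 had H3K4me1 in 3 and H3K27ac in 1. Cldn7, Rab25, St14, Pax8 and Wfdc2 had neither mark in any replicate, though the pooled H3K27ac list had a promoter peak at Pax8 and Wfdc2. Of 12 ciliated cell genes, 7 (58.3%, near the background) had H3K27ac and 9 (75.0%) had H3K4me1, with Rfx3, Rsph1, Tppp3 and Cfap126 marked in all 6 lists, Rfx2 in 3 of H3K27ac and 2 of H3K4me1, and Gmnc and Dnaic1 in 2 and 3. Mcidas, Dnah5 and Sntn were marked in none. Of 6 mesothelial genes, only Wt1 had recurrent H3K27ac, and Wt1 and Upk1b had recurrent H3K4me1. Of 8 endothelial genes, Cdh5, Tek and Emcn had H3K27ac and Kdr, Tek and Emcn had H3K4me1. Of 8 blood cell genes, Ptprc and Cd68 had H3K27ac and none had H3K4me1. Of 12 liver and neuron genes, which no oviduct cell is meant to express, none had H3K27ac and Alb alone had H3K4me1. H3K4me1 without recurrent H3K27ac, the state of 4 of the 10 identity genes, was found at 3 of the further epithelial genes (15%, Grhl1, Ovol1 and Ovol2), 2 ciliated cell genes (16.7%, Ccdc39 and Tekt1), 2 smooth muscle genes (16.7%, Cnn1 and Mylk), 1 mesothelial gene (16.7%, Upk1b), 1 endothelial gene (12.5%, Kdr) and 1 liver gene (8.33% of the liver and neuron list, Alb), and at no stromal or blood cell gene, against 4.54% of all genes. The part of other cell types in the marks at the 10 genes was not tested. Among the epithelial and ciliated lists, Grhl1, Ccdc39 and Tekt1 had the same pattern of promoter peaks over the 6 replicate lists as Ehf, and no other gene of those lists had the pattern of a member with a promoter peak. Such patterns were not particular to epithelial genes, since the smooth muscle gene Cnn1 shared the pattern of Ehf, and Upk1b (mesothelial) and Kdr (endothelial) shared that of Ovgp1.

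**Figure D5:**
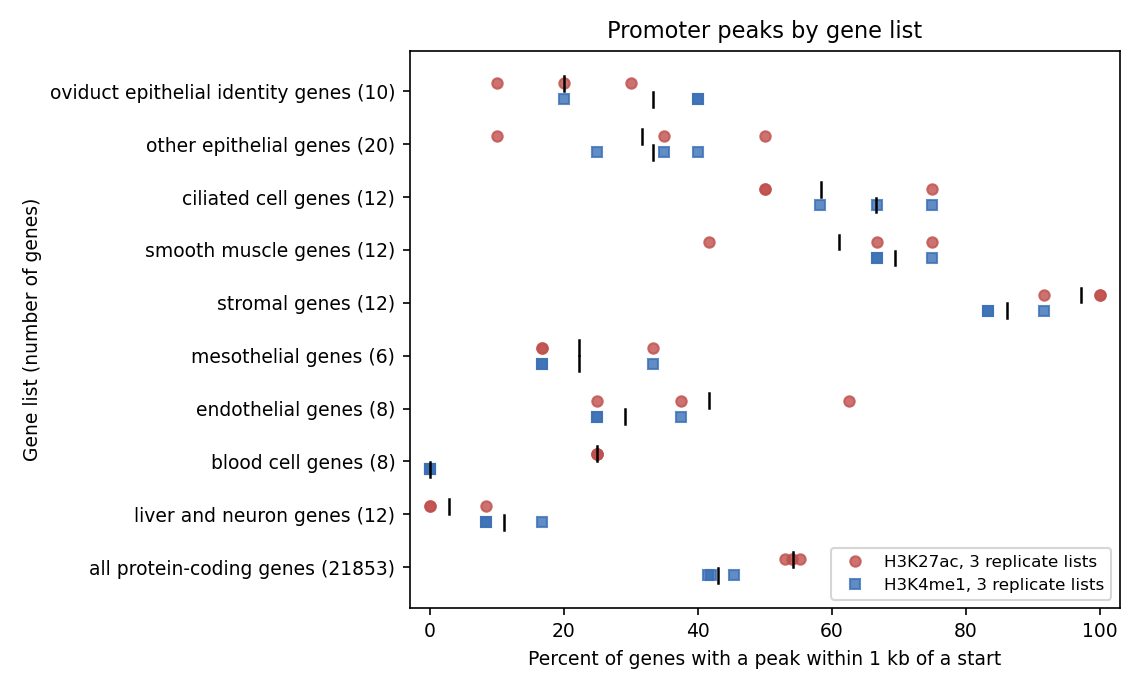
Percent of the genes of each list with a peak within 1 kb of a start in the 3 replicate lists of H3K27ac (red circles) and of H3K4me1 (blue squares), with the mean as a black line (equal values overlie each other). The 10 oviduct epithelial identity genes range from 10% to 30% for H3K27ac, below the 53.0% to 55.3% of all protein-coding genes, and from 20% to 40% for H3K4me1, beside 41.5% to 45.4%.

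Whether the set carried more of one mark than of the other was asked over the 6 replicate lists with an exact two-sided permutation test, which cannot give a p below 0.1 for 3 lists against 3. Promoter peaks were found at 2.00 ± 1.00 genes for H3K27ac and 3.33 ± 1.15 for H3K4me1 (SD, n = 3), a difference of -1.33 (exact permutation p = 0.3, adjusted over 4 comparisons 0.6). This difference turned to 0.333 with the 50000 peaks of highest fold enrichment, to 0.333 with promoter windows of 250 bp and to 0.667 when the start base had to be covered, and it was 0 among the lists called against IgG 2 and -2 between those called against IgG 3. Gene bodies were covered at 2.49% ± 1.00 by H3K27ac and 3.70% ± 0.761 by H3K4me1 (SD, n = 3), from 1.89%, 3.65% and 1.94% against 3.67%, 4.47% and 2.95% in replicates 1, 2 and 3, and the groups overlapped (exact permutation p = 0.2, adjusted 0.6). Windows were covered at 6.44% ± 0.753 and 6.37% ± 1.06 (SD, n = 3; exact permutation p = 0.8, adjusted 0.8). The windows held 38, 38 and 44 peaks of H3K27ac and 45, 40 and 42 of H3K4me1 in replicates 1, 2 and 3, that is 40 ± 3.46 H3K27ac peaks and 42.3 ± 2.52 H3K4me1 peaks (SD, n = 3; exact permutation p = 0.5, adjusted 0.667). The 2 groups of lists overlapped in all 4 comparisons, and no difference passed the test. Nothing in the labels says that the samples came from separate animals, and some lists shared an IgG control, so the lists were not independent. These p-values measure only the spread between the lists.

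The lists resembled each other by IgG library at least as much as by mark. Within the 10 windows, the covered bases shared by a pair of lists, as a share of the bases covered by either, were 0.368 to 0.480 for the 3 pairs of different marks called against the same IgG library and 0.260 to 0.338 for the 5 pairs of the same mark called against different IgG libraries. The 1 pair that shared both had 0.462, and the 6 pairs that shared neither had 0.212 to 0.273. H3K27ac replicate 2 and H3K4me1 replicate 1, which share IgG 2 but not a number, had 0.368, and H3K27ac replicate 1 and H3K4me1 replicate 1, which share a number but not an IgG library, had 0.273.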

How the data were processed

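Peak lists from ChIC-Seq were analysed for 3 samples of H3K27ac and 3 of H3K4me1, with 1 pooled list per mark. The 3 IgG samples entered only as their controls. Per the submitters' processing notes the authors used cutadapt, Bowtie2 and MACS2 on GRCm38.p5, with aligner settings not given in the sources used here. Per the file headers, the authors called broad peaks with MACS 2.2.7.1 from paired-end fragments, with p-value cutoffs of 0.05 for strong and 0.1 for weak regions, duplicates already removed, and the larger library scaled to the smaller. The deposited signal of a peak is thus fragment coverage at the depth of its IgG library (3110985 to 3713369 fragments in the replicate calls). The authors' fold enrichment is the ratio of that coverage to local background after MACS adds 1 to each, so it understates the ratio of the coverages at the low coverage of these peaks. Their deposited p-value is given as −log10, averaged over the region. The q-value was not used. These values served for description, ranking and filters within a list, and at this depth weak peaks are imprecise.

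Peaks were overlapped with GENCODE vM21 gene models (GRCm38) in Python 3.11.15 with NumPy 2.4.6 and pandas 2.3.3. No peak passed a chromosome end over 21 chromosomes. The genes named were all 10 members and other listed genes marked at the promoter by every replicate of a mark or falling in a count of 5 or fewer. The stromal genes were given as counts. Myh11, marked in 1 replicate list, and the unmarked examples were also named and were chosen after their values were seen. Neighbours were named where their promoters were marked in at least 2 of 3 replicates. Not every neighbour that met this rule is reported here. The members and gene lists were chosen with earlier results of these data known. The overlap and coverage code was tested on simulated data, with 0 errors over 3000 regions. Each mark comparison used an exact permutation test over 20 assignments of the 6 lists, with Benjamini-Hochberg adjustment. Alternatives changed the peak threshold, overlap, promoter window, flank, neighbours' peaks, replicates and lists.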

Additional observations from a re-analysis of the deposited data

How the results depend on the processing

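Of 83 values recomputed for 6 results, 61 were of the same sign, or for counts within 1.5 times, 15 changed sign and 7 counts moved. With 3 lists against 3 no comparison could pass a threshold of 0.05, so significance was not used in this count. The difference in members with a promoter peak (H3K27ac minus H3K4me1, -1.33) became 0.333 with the 50000 peaks of highest fold enrichment, 0.333 with promoter windows of 250 bp and 0.667 when the start base had to be covered, the last of these chosen after seeing the data, was -3 between the pooled lists and -0.667 with the most upstream start only, was -1 within IgG libraries, also chosen after seeing the data (0 for IgG 2 and -2 for IgG 3), and ranged from -2 to -0.833 without single replicates. The difference in windows covered (0.0686 percentage points) became -0.932 with a flank of 10 kb, -0.212 with 50 kb, -0.364 without peaks at neighbours' promoters, -0.126 as a median over members, -2.63 between the pooled lists, 0.575 with the 50000 peaks, 0.449 with −log10 p of at least 1.3, and, in alternatives chosen after seeing the data, -0.00524 without Krt8 and Krt18 and -0.153 within IgG libraries, and it ranged from -0.343 to 0.678 without single replicates. The difference in bodies covered (-1.20) became 0.438 as a median over members, -0.417 with the 50000 peaks and -0.713 within IgG libraries, and ranged from -1.78 to -0.817 without single replicates. With −log10 p of at least 1.3 it was -0.778 (0.203% against 0.981%, exact permutation p = 0.1, the smallest that 3 lists against 3 allow). The difference in peaks (-2.33) became 3.33 with the 50000 peaks, was -8 between the pooled lists (33 against 41 peaks) and -1.25 within IgG libraries (-4.5 for IgG 2 and 2 for IgG 3), was -1.33 with −log10 p of at least 1.3 and also without Krt8 and Krt18, and ranged from -4.33 to -1 without single replicates. With a flank of 10 kb the difference in peaks was -3.33 (18.0 against 21.3, exact permutation p = 0.1, again the smallest possible). The cause was not tested for any of these.

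The count of members with a recurrent H3K27ac promoter peak (0) became 2 with windows of 2 kb (Krt8 and Krt18, against 56.0% of all genes). Leaving out single replicates could not raise a count of 0, since both remaining replicates must then have a peak, and gave 0. The H3K4me1 count (4) became 1 with −log10 p of at least 1.3 (Krt19, against 13.5% of all genes), 1 with the 50000 peaks (Krt19, against 33.9%), 1 with windows of 250 bp (Ehf, against 27.1%) and 0 when the start base had to be covered (against 17.6%). Without single replicates it ranged from 1 to 3, where a peak in both remaining replicates was required, with 1 without replicate 1, 3 without replicate 2 and 2 without replicate 3. Each treatment library held 11.3 to 25.2 times the fragments of its IgG control and was scaled down to it, and the part of depth in these counts was not tested.

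With the replicate number as a block, the differences were -1.33, 0.0686, -1.20 and -2.33 with exact sign-flip p = 0.5, 0.75, 0.25 and 0.75 over 3 pairs, where 0.25 is the smallest p that 8 sign assignments allow. H3K27ac was higher in 1, 2, 0 and 1 of the 3 pairs. Whether the numbers paired the samples could not be told from these values. Deviations from the mark means over gene windows correlated at -0.0804, 0.335 and 0.494 for numbers 1, 2 and 3. Not every sample correlated best with its own number. The lists numbered 2 and 3 shared an IgG library between the marks and those numbered 1 did not, so number and IgG library largely overlapped. H3K27ac replicate 2 and H3K4me1 replicate 1, which share IgG 2 but not a number, correlated at 0.374.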
